A study of Mus musculus with 6 samples.

Results

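The Ugt2 and Ugt3 genes encode UDP-glycosyltransferases of the endoplasmic reticulum, enzymes that join a sugar to small lipophilic molecules so that they can leave the cell in bile or urine. The 10 genes described here are Ugt2a3, Ugt2b1, Ugt2b5, Ugt2b34, Ugt2b35, Ugt2b36, Ugt2b37, Ugt2b38, Ugt3a1 and Ugt3a2, of 23412 genes in the count table. They were chosen by name from earlier results of the same comparison of liraglutide with phosphate-buffered saline (PBS), so their differences between the groups are given as a description and carry no test. Transcripts were measured by RNA sequencing of liver from C57BL/6J mice, an inbred strain, labelled as 8 weeks old. All mice had been fed a high-fat diet for 4 weeks. One group then received liraglutide, an agonist of the receptor for the gut hormone glucagon-like peptide 1, under the skin at 300 µg/kg over 3 days, and the control group received PBS over the same 3 days. Each group has 3 libraries, named here by group and column number: Lira161, Lira162 and Lira164, and PBS155, PBS157 and PBS158.

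Total counts lay between 20888991 and 27007182 per library. The labels do not say that libraries came from separate animals, so a p-value here sets the group difference only against the variation between libraries. That variation may be technical. The tissue label was matched by hepatocyte transcripts: the 8 hepatocyte markers, albumin among them, summed to between 93454 and 133059 CPM (counts relative to the library total). CPM of single genes include TMM factors, and the summed CPM of gene lists do not. Of 12626 genes with enough counts to test, 1107 (8.77%) passed the threshold of 0.05 for the Benjamini-Hochberg adjusted p of edgeR's quasi-likelihood fit, 592 lower (4.69%) and 515 higher (4.08%) after liraglutide. Leaving out one library moved the total to between 393 (without Lira162) and 1496 (without Lira164), and the lower count to between 231 and 802 without the same libraries. All 10 Ugt2 and Ugt3 genes passed the filter on low counts.

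In the liver, Ugt2 enzymes transfer glucuronic acid from UDP-glucuronic acid to steroids, bile acids, fatty acid derivatives and many drugs. Ugt3 enzymes are the odd branch of the family: the human forms use other sugar donors such as UDP-N-acetylglucosamine, UDP-glucose and UDP-xylose. Nuclear receptors for bile acids, fatty acids and foreign compounds are known to act on genes of this kind.

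Sequences just before the transcription starts are shown first, because a near-palindromic run of letters recurs there in genes that differ widely in level and in difference between groups. The search pattern, GTTA and TTAAC with 4 free bases between them, was written after these promoters had been read. On both strands, it matched 8 of the 9 members with a RefSeq promoter (250 bases before to 50 bases after the start, GRCm38.p6), against 62 of 32851 promoters (0.189%). Each line gives 60 bases, 5′ to 3′ on the gene's strand, and capitals mark the 13 matched bases. The promoter of Ugt3a2 was not analysed here.
Ugt2b1 (chr5:86926553-86926612, minus strand): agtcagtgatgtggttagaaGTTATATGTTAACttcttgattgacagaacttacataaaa
Ugt2b34 (chr5:86906971-86907030, minus strand): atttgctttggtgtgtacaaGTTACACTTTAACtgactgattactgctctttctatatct
Ugt2b35 (chr5:87000770-87000829, plus strand): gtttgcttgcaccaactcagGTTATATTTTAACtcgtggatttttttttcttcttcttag
Ugt2b36 (chr5:87092580-87092639, minus strand): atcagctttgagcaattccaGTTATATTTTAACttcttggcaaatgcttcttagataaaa
Ugt2b5 (chr5:87140362-87140421, minus strand): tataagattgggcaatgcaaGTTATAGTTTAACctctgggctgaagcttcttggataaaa
Ugt2b37 (chr5:87254827-87254886, minus strand): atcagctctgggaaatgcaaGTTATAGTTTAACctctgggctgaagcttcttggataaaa
Ugt2b38 (chr5:87424228-87424287, minus strand): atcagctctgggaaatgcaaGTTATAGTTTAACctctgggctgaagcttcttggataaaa
Ugt3a1 (chr15:9279679-9279738, plus strand): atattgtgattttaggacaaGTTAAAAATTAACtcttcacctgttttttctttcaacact
Ugt2a3 (chr5:87337236-87337295, minus strand): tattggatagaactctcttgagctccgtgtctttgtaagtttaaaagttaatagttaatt

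The stretches of Ugt2b37 and Ugt2b38 are identical over all 60 bases, and Ugt2b5 carries the same matched bases. In the 7 Ugt2b promoters the match began between 61 bases (Ugt2b5) and 89 bases (Ugt2b1) before the start, always reading in the gene's direction. In Ugt3a1 it began 130 bases before the RefSeq start, matched on both strands, and lies inside the longer gene model of GENCODE. The nuclear receptor half-site AGGTCA matched 5 members (Ugt2b35, Ugt2b36, Ugt2b5, Ugt2b37 and Ugt2b38) against 5340 promoters (16.3%). In 4 of these 5 (all but Ugt2b35) it began 22 to 39 bases before the start, downstream of the match above. The direct repeat of AGGTCA with 1 base between its copies matched no member and 13 promoters. A match is a description of letters and not evidence of binding.

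The 8 Ugt2 genes lie in one run on chromosome 5 and the 2 Ugt3 genes next to each other on chromosome 15 (GRCm38, GENCODE M21). In chromosome order the run holds Ugt2b34 (86889767 to 86906937), Ugt2b1 (86916638 to 86926530), Ugt2b35 (87000860 to 87013275), Ugt2b36 (87065927 to 87092555), Ugt2b5 (87124960 to 87140318), Ugt2b37 (87240493 to 87254804), Ugt2a3 (87324972 to 87337195) and Ugt2b38 (87409942 to 87424203). Ugt2b35 is on the plus strand and the other 7 are on the minus strand. Ugt3a1 (9276888 to 9315032) and Ugt3a2 (9335550 to 9370955) are both on the plus strand. Each Ugt2 gene has 6 exons and each Ugt3 gene 7 in the coding transcript used here. No exon of a member overlaps an exon of another gene in this annotation.

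The closest copies in this set are Ugt2b5 and Ugt2b38, whose coding sequences agree at 97.0% of aligned bases. Ugt2b5 and Ugt2b37 agree at 94.7%, Ugt2b37 and Ugt2b38 at 94.1%, and Ugt3a1 and Ugt3a2 at 93.2%. Ugt2b1, with no such copy, agrees best with Ugt2b34, at 75.0%. Between a Ugt2 and a Ugt3 gene the agreement was 51.1% to 53.0% over 16 pairs. These copies bear on the counts, since a read that fits more than one gene can be assigned to either or dropped, and how such reads were treated is not stated in the sources used here. Of all 50-base windows of the transcript, 41.7% in Ugt2b5, 37.4% in Ugt2b38 and 18.3% in Ugt2b37 also occur in another gene. The same share was 9.39% in Ugt3a1 and in Ugt3a2, 4.55% in Ugt2a3, 2.07% in Ugt2b34, 0.725% in Ugt2b35 and 0.326% in Ugt2b36, and 0 of 2524 windows in Ugt2b1. Over 100-base windows it was 24.7% in Ugt2b5, 24.2% in Ugt2b38 and 1.06% in Ugt2b37, and 0 in both Ugt3 genes. The counts of Ugt2b5 and Ugt2b38 are therefore uncertain in how they are divided, and how far this holds for Ugt2b37 and the Ugt3 pair depends on the read length, which is not stated.

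**Figure D1:**
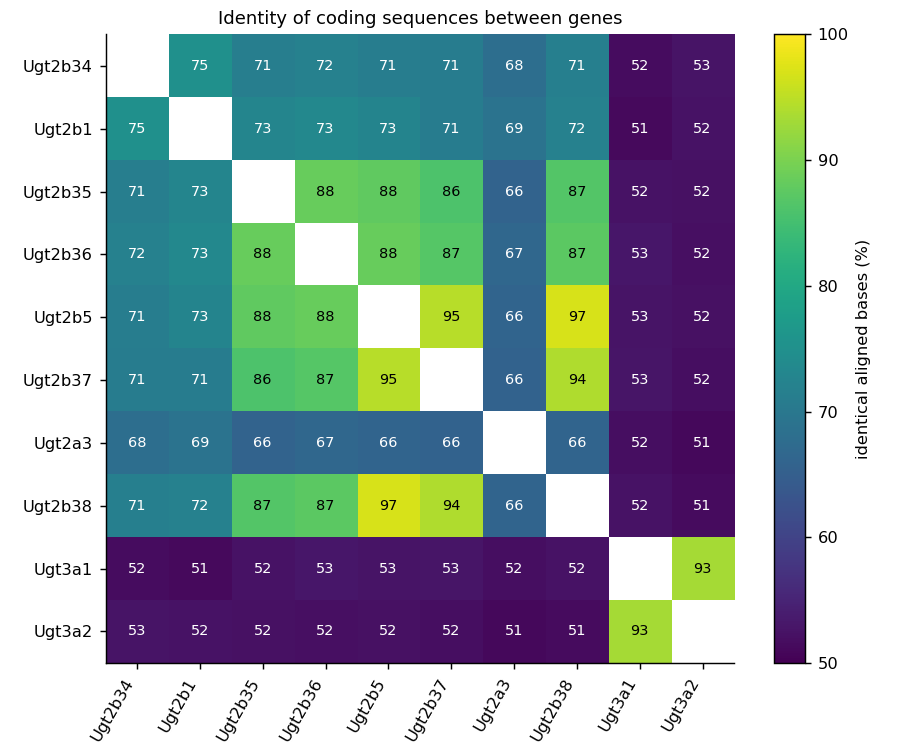
Percent of identical aligned bases between the coding sequences of each pair of the 10 genes, with genes in chromosome order on both axes. Ugt2b5, Ugt2b37 and Ugt2b38 form a block between 94.1% and 97.0%, and Ugt3a1 with Ugt3a2 a pair at 93.2%.

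Levels can be compared between genes only per length, so CPM were divided by the kilobases of annotated exon (RPKM). These levels in the PBS libraries do not use the contrast by which the genes were chosen. Ugt2b5 was the highest, at 480.4 ± 49.0 RPKM (SD, n = 3), and lay between the 99.2 and 99.3 percentiles of the 11878 tested genes with a length. Ugt2b36, the mouse form known for conjugating morphine, followed at 300.4 ± 32.1 RPKM and Ugt2b1 at 200.6 ± 13.7 RPKM. The ranges of these 3 genes over the PBS libraries did not overlap, and their order was the same in all 3.

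Ugt2a3, whose human counterpart conjugates bile acids, stood at 154.8 ± 15.2 RPKM and Ugt3a2 at 151.0 ± 8.42 RPKM. Their ranges overlapped and their order was swapped in PBS157, so this pair does not differ beyond its spread. Ugt2b34 was at 130.5 ± 4.07 RPKM, below Ugt3a2 in each PBS library, and Ugt2b35 at 69.3 ± 11.2 RPKM. Ugt3a1, the close copy of Ugt3a2, was at 30.4 ± 3.17 RPKM. The ratio of Ugt3a2 to Ugt3a1 in CPM lay between 4.96 and 7.02 over the 6 libraries, with both groups spread across that range. The place of Ugt3a2 in the order depends on the length used: with the longest transcript in place of all exons it stood at 201.1 RPKM, beside Ugt2b1 at 200.6.

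Ugt2b38 and Ugt2b37 were the lowest, at 8.85 ± 6.65 and 1.98 ± 1.27 RPKM. Over the PBS libraries Ugt2b38 ranged from 2.21 to 15.5 RPKM and Ugt2b37 from 0.836 to 3.35 RPKM. Their ranges overlapped, although Ugt2b38 was the higher of the pair in each PBS library. Of the whole set, Ugt2b34 varied least in PBS (coefficient of variation 3.12%) and Ugt2b38 most (75.2%). Ugt2a1 and Ugt2a2, the neighbouring genes of the same family known from olfactory tissue, had 0 counts in all 6 libraries, which allows up to 3 counts in each, and Ugt8a had 1 to 10 counts.

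After liraglutide all 10 genes had a lower fitted mean, with a median log2 fold change of -0.39, while the median over all tested genes was 0.01 and 48.4% of them were negative. Of the 10, 2 (Ugt2a3 and Ugt2b1) were past the threshold in the lower direction, where 4.69% of all tested genes were, and 0 were past it in the higher direction. The groups did not overlap for 5 of the 10 (Ugt2a3, Ugt2b1, Ugt2b34, Ugt2b36 and Ugt3a2), all lower, where 16.4% of all tested genes had lower groups without overlap. With the DESeq2 Wald test the first count was 5, against 6.41% of genes, and without Lira164 it was also 5, against 6.27%. Nothing is read from these counts, since the same contrast chose the genes. In bulk tissue, fewer cells of a type and less RNA per cell cannot be told apart, and this holds for each value below.

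**Figure D2:**
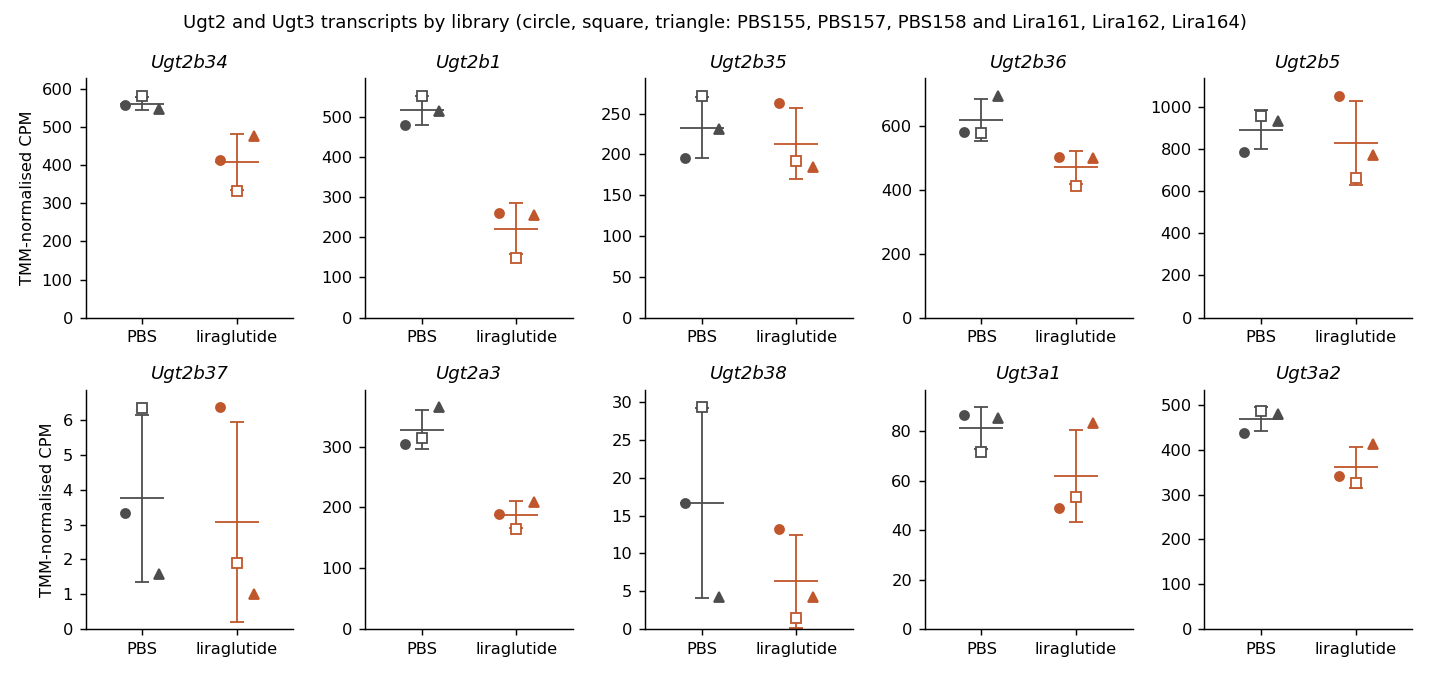
TMM-normalised CPM of each gene (y axis, own scale from 0 in each panel) in the PBS and liraglutide libraries, with 1 point per library and the mean ± SD over 3. The points of the 2 groups do not overlap for Ugt2a3, Ugt2b1, Ugt2b34, Ugt2b36 and Ugt3a2, and they overlap for the other 5.

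Ugt2b1 has been described as more abundant in male than in female mouse liver and is the gene of the set with the lowest liraglutide values relative to PBS among well-covered members. It was at 260.4, 147.8 and 255.3 CPM in Lira161, Lira162 and Lira164, and at 481.0, 551.7 and 515.4 CPM in PBS155, PBS157 and PBS158. Every liraglutide library was below every PBS library, and Lira162 was the lowest. The means were 221.1 ± 63.6 and 516.1 ± 35.4 CPM (SD, n = 3 each), a log2 fold change of -1.22 ± 0.21 (SE), or 2.33-fold lower.

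Ugt2a3 is the only tested Ugt2a gene in these livers. It was at 189.7, 164.8 and 209.5 CPM in the 3 liraglutide libraries, against 305.0, 313.7 and 364.5 CPM in PBS. The groups did not overlap, and the gap between the highest liraglutide and the lowest PBS library was wider than the spread within either group. The log2 fold change was -0.80 ± 0.12 (means 188.0 ± 22.4 and 327.7 ± 32.2 CPM). Of the 9 members whose promoter was searched, Ugt2a3 was the one with no match to the first pattern. Its printed window holds gttaatagttaat, which departs from that pattern only in the last base.

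Ugt2b5, the most abundant of the family here, was at 1051.6, 665.1 and 772.8 CPM after liraglutide and at 788.3, 956.2 and 933.2 CPM in PBS. Lira161 was the highest and Lira162 the lowest of all 6, so that the liraglutide group enclosed the PBS group. The means were 829.8 ± 199.4 and 892.6 ± 91.0 CPM, with a log2 fold change of -0.11 ± 0.17. The sign turned to 0.02 without Lira162.

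Ugt2b35 had a similar spread, at 263.4, 192.1 and 184.0 CPM after liraglutide and 196.2, 271.4 and 230.8 CPM in PBS. The groups overlapped, with Lira161 among the PBS values, and the log2 fold change was -0.13 ± 0.17. Ugt2b36 was at 503.3, 412.7 and 499.8 CPM after liraglutide, against 581.8, 579.2 and 694.9 CPM in PBS. Here the groups did not overlap, and the log2 fold change was -0.39 ± 0.13.

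Ugt2b34, the first gene of the chromosome 5 run, was at 415.1, 332.6 and 478.1 CPM after liraglutide and at 557.8, 582.0 and 547.9 CPM in PBS. The groups did not overlap: the PBS libraries lay close together and the liraglutide libraries were lower and more spread. Its log2 fold change was -0.46 ± 0.14.

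The 2 Ugt3 genes lay at different levels. Ugt3a2 was at 342.5, 326.5 and 413.0 CPM after liraglutide and 438.6, 487.2 and 479.4 CPM in PBS, without overlap (log2 fold change -0.38 ± 0.12). Ugt3a1 was at 48.8, 53.5 and 83.2 CPM against 86.6, 71.4 and 85.5 CPM, with a log2 fold change of -0.39 ± 0.20. Lira164 lay within the PBS values of Ugt3a1 and the other two liraglutide libraries lay below them. Without Lira164 the log2 fold change was -0.674 for Ugt3a1 and -0.495 for Ugt3a2, and without Lira161 it was -0.25 and -0.34.

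Ugt2b38, like Ugt2b1 described as male-predominant in mouse liver, varied far more between libraries than between groups. Its raw counts were 275, 38 and 102 in Lira161, Lira162 and Lira164, and 455, 685 and 87 in PBS155, PBS157 and PBS158. The exact Poisson interval (95%) was 26.9 to 52.2 for the lowest and 634.7 to 738.3 for the highest, and covers counting error only. In CPM these were 13.3, 1.47 and 4.25 after liraglutide against 16.7, 29.3 and 4.18 in PBS. PBS158 lay among the liraglutide values, and the highest library exceeded the lowest 7.02-fold within PBS and 9.04-fold within liraglutide. The log2 fold change of -1.43 ± 1.01 had a standard error above those of 99.9% of tested genes, and it ran from -2.56 without Lira161 to -0.75 without PBS157.

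Ugt2b37 showed the same kind of spread at lower counts: 132, 49 and 24 after liraglutide and 91, 148 and 33 in PBS. The highest and lowest libraries were 4.00-fold apart in PBS and 6.37-fold apart after liraglutide, and the groups overlapped fully. Its log2 fold change was -0.31 ± 0.79, and it turned to 0.11 without Lira164 and to 0.29 without PBS157.

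These 2 genes share much of their sequence with Ugt2b5, but their counts did not keep a fixed proportion to it. Ugt2b38 amounted to 1.26%, 0.221% and 0.550% of Ugt2b5 in CPM in the liraglutide libraries and to 2.11%, 3.07% and 0.447% in the PBS libraries. Ugt2b37 amounted to between 0.129% and 0.663% of Ugt2b5 over all 6. Part of the counts of either gene may come from reads shared with Ugt2b5, and that part was not tested.

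Because the members differed unequally, the makeup of the summed transcript pool differed between the groups. The shares restate values of the contrast that chose the genes, so they are a description and carry no test. As a share of the summed RPKM of all 10, Ugt2b1 made up 7.70%, 6.01% and 8.34% in the liraglutide libraries and 13.3%, 13.6% and 12.5% in PBS. Ugt2b5 made up 43.0%, 37.5% and 35.0% after liraglutide and 30.1%, 32.6% and 31.4% in PBS. The groups did not overlap for either share, Ugt2b1 being the smaller and Ugt2b5 the larger part after liraglutide. The level of Ugt2b5 itself was not higher, at 446.6 ± 107.3 RPKM after liraglutide and 480.4 ± 49.0 RPKM in PBS. Ugt2a3 also had shares without overlap, at 6.81%, 8.15% and 8.32% after liraglutide and 10.2%, 9.40% and 10.8% in PBS. Ugt2b36 stayed at similar shares, 19.99 ± 1.25% and 19.7 ± 1.67%, as did Ugt3a2, at 10.2 ± 1.57% and 9.89 ± 0.187%.

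The ratio of Ugt2b5 to Ugt2b1 in CPM was 4.04, 4.50 and 3.03 after liraglutide and 1.64, 1.73 and 1.81 in PBS. This ratio is taken within a library and does not depend on scaling between libraries, but it too restates the contrast that chose the genes. Ugt2b1 had rank 3 by RPKM in each PBS library and ranks 4, 6 and 5 in Lira161, Lira162 and Lira164, where Ugt2b34, Ugt2a3 and Ugt2b1 had means of 94.8 ± 16.9, 88.8 ± 10.6 and 85.9 ± 24.7 RPKM that do not differ beyond their spread. Together the 10 genes took 0.307%, 0.234% and 0.302% of all counts in the liraglutide libraries and 0.349%, 0.379% and 0.367% in PBS.

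**Figure D3:**
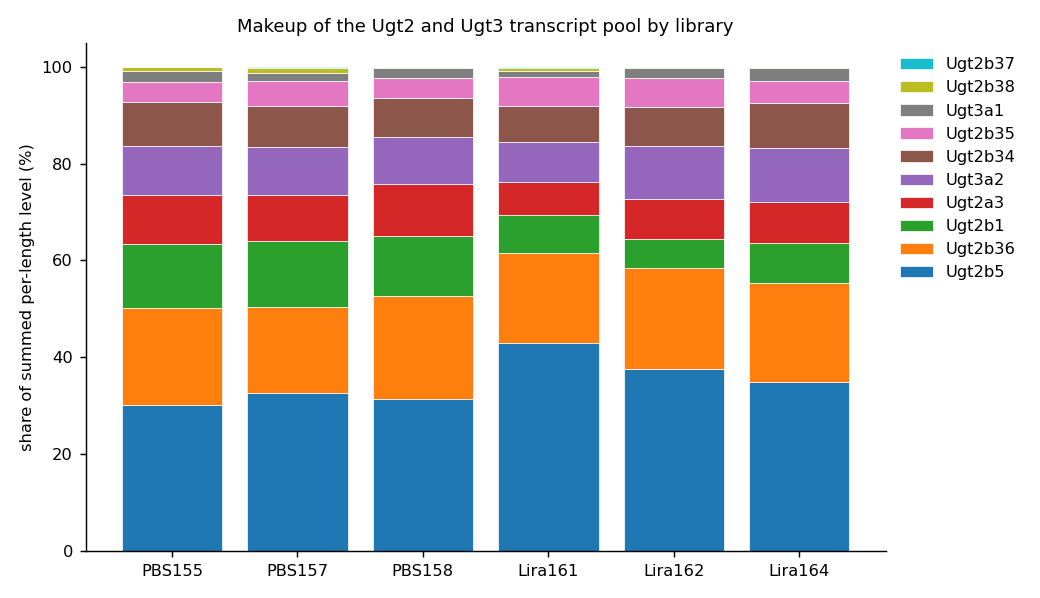
Share of each gene in the summed per-length level (RPKM, %) of the 10 genes, 1 bar per library. The Ugt2b1 segment is 12.5% to 13.6% in the PBS libraries and 6.01% to 8.34% in the liraglutide libraries, and the Ugt2b5 segment is 30.1% to 32.6% and 35.0% to 43.0%.

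Fold changes did not run evenly along the chromosome 5 run. Ugt2b34 and Ugt2b1, next to each other at one end, were at -0.46 and -1.22, and Ugt2b35, Ugt2b36 and Ugt2b5 in the middle lay between -0.39 and -0.11. Then followed Ugt2b37 at -0.31, Ugt2a3 at -0.80 and Ugt2b38, the last of the run, at -1.43, with the wide errors of Ugt2b37 and Ugt2b38 given above. No other tested gene lies between the outermost members on either chromosome. The nearest tested gene before the run is Ythdc1, a reader of methylated adenosine in RNA, with a log2 fold change of -0.14 ± 0.11 (edgeR adjusted p = 0.466). The nearest after it is Sult1b1, a sulfotransferase for phenols and thyroid hormone, which fell from 39.6 ± 8.41 to 17.2 ± 1.04 CPM (-1.21 ± 0.15, edgeR adjusted p = 0.00399). On chromosome 15, Lmbrd2 on one side had a log2 fold change of -0.28 ± 0.30 (edgeR adjusted p = 0.604). Il7r, the interleukin 7 receptor, on the other had 23, 28 and 10 counts after liraglutide and 9, 8 and 4 in PBS (1.55 ± 0.48, edgeR adjusted p = 0.0780).

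**Figure D4:**
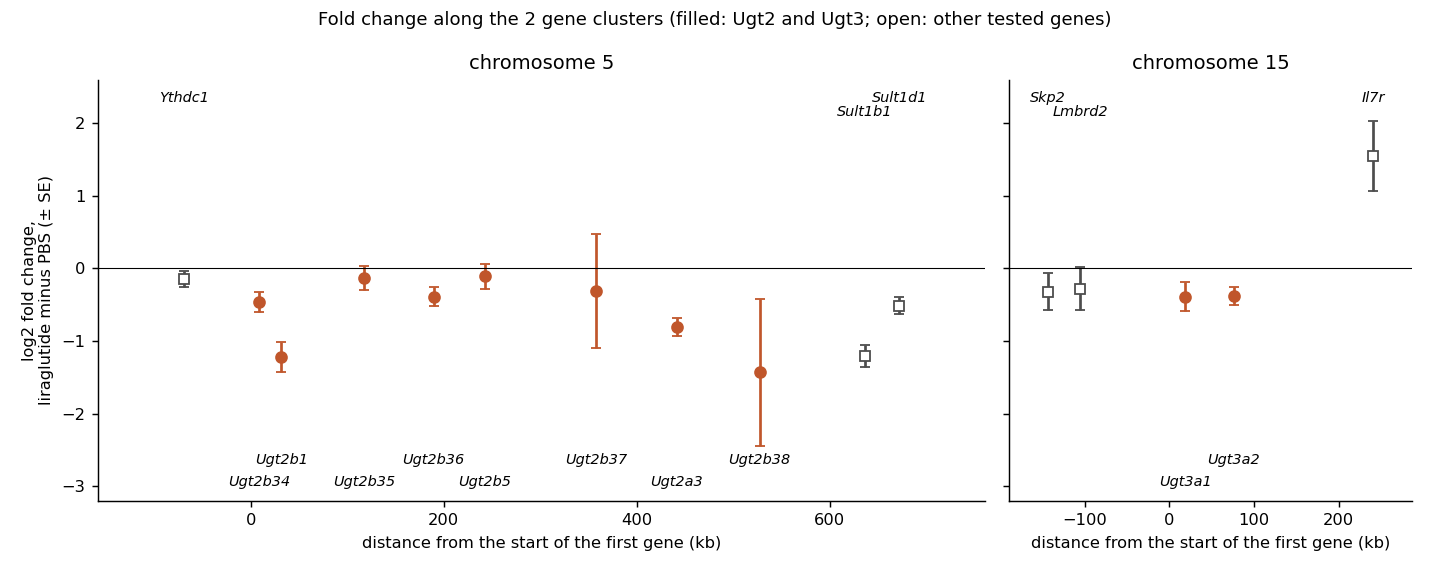
Log2 fold change (liraglutide minus PBS, ± SE) against the distance from the start of the first Ugt2 or Ugt3 gene in kilobases, on chromosome 5 (left) and chromosome 15 (right). Filled points are Ugt2 and Ugt3 genes, from -1.43 (Ugt2b38) to -0.11 (Ugt2b5), and open squares are other tested genes, with Sult1b1 at -1.21.

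Profiles over the 6 libraries were compared by the root mean square (RMS) difference of log2 CPM, each gene centred on its own PBS mean. The 2 genes profiled were the member with the highest CPM, Ugt2b5, and the one with the largest fold change, Ugt2b38. That place passed to Ugt2b1 without PBS157 (-0.75 for Ugt2b38 against -1.17) or without Lira162 (-0.95 against -1.01). Among 9249 other genes, those closest to Ugt2b5 were Zfp119a (RMS difference 0.07), Higd2a (0.08), Tmem179b (0.09), Aqp9 (0.09) and Snhg12 (0.09), where the median gene was at 0.30. They share with Ugt2b5 a low value in Lira162 and a value above the PBS mean in Lira161. With this many candidates and 6 libraries, some close profiles are found for any gene.

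The profile of Ugt2b38 was closest to those of Saa1 (RMS difference 0.50), Orm2 (0.53), Mup15 (0.55), Orm1 (0.62) and Saa2 (0.63), where the median gene was at 1.63. Relative to the PBS mean on the log2 scale, Ugt2b38 was at 0.39, 1.20 and -1.59 in PBS155, PBS157 and PBS158 and at 0.06, -3.05 and -1.56 in Lira161, Lira162 and Lira164. Saa1 was at -0.32, 1.53 and -1.22 in the same PBS libraries and at 0.51, -2.97 and -2.29 in the liraglutide libraries. Both were highest in PBS157 and below the PBS mean in PBS158, Lira162 and Lira164. They had opposite signs in PBS155, and in Lira161 Ugt2b38 was near its PBS mean while Saa1 was above it. Orm1 and Orm2, Saa1 and Saa2, and Mup15 belong to families of near-identical genes whose counts are uncertain in how reads are divided.

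Between the members themselves, the closest profiles were those of Ugt2b5 and Ugt2b35 (RMS difference 0.11), Ugt2b34 and Ugt3a2 (0.11) and Ugt2b36 and Ugt3a2 (0.12). Ugt2b37 and Ugt2b38, with identical stretches around the promoter match, were 1.05 apart, the smallest distance of Ugt2b38 to any member, and Ugt2b5 and Ugt2b38, the closest pair by coding sequence, were 1.47 apart.

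**Figure D5:**
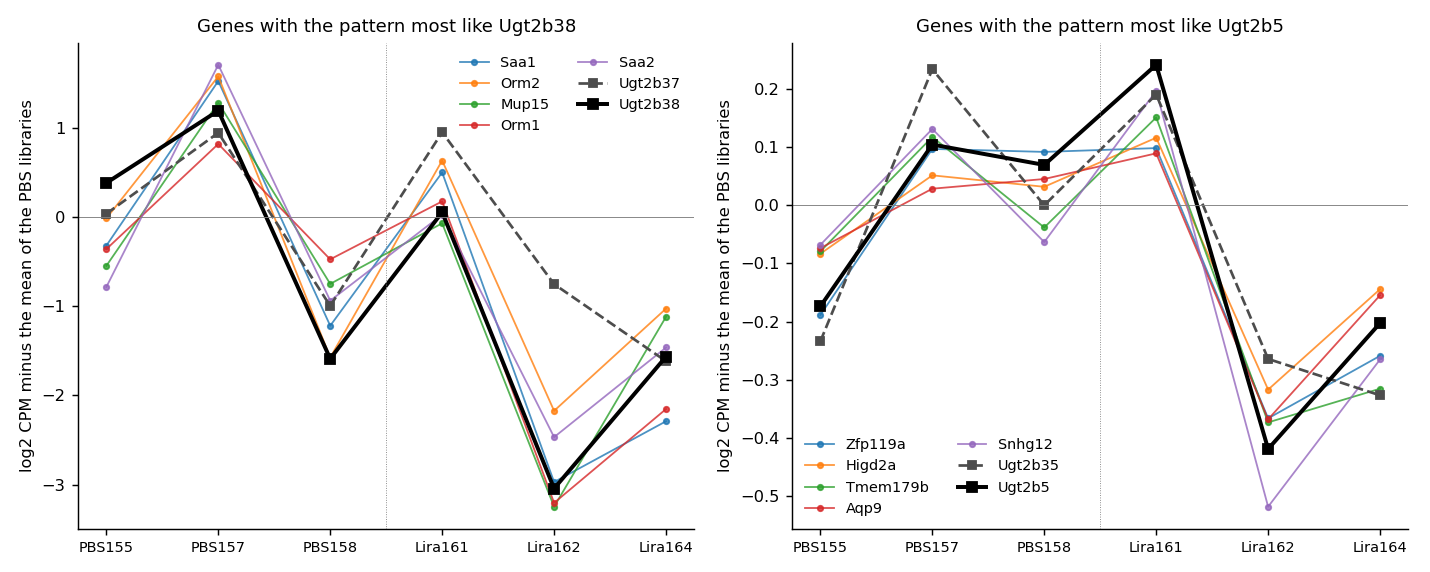
Log2 CPM relative to the PBS mean (y axis) in each of the 6 libraries for Ugt2b38 (left) and Ugt2b5 (right), the 5 genes with the smallest RMS difference to each, and a close family member (dashed). Lines join the values of one gene and imply no order of libraries. Ugt2b38 spans from -3.05 in Lira162 to 1.20 in PBS157, and Ugt2b5 from -0.42 to 0.24.

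The other branch of glucuronidation, the Ugt1a enzymes, was given by 5 tested genes. Of these 1 fell, 0 rose, and the median log2 fold change was -0.24. Over all tested genes 4.69% fell and 4.08% rose, with a median of 0.01, which holds beside each list below. All lists were written with earlier results of these data known. Ugt1a1, the enzyme that conjugates bilirubin, was at 203.7 ± 32.2 CPM after liraglutide and 214.7 ± 18.9 CPM in PBS (-0.08 ± 0.13, edgeR adjusted p = 0.756). Ugt1a5 fell, with 44, 70 and 43 counts after liraglutide and 217, 141 and 210 in PBS (-1.86 ± 0.24, edgeR adjusted p = 0.00507). Ugt1a genes share their last exons, 59.5% of the exon bases of Ugt1a5, so its counts are uncertain. Ugt1a1 was chosen for naming with its values known.

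Genes that make, carry and remove the sugar donors gave 16 tested members, of which 1 rose and 1 fell, with a median of 0.02. Ugdh, which makes UDP-glucuronic acid, was at 112.2 ± 23.3 and 113.5 ± 17.9 CPM (-0.02 ± 0.17, edgeR adjusted p = 0.965). Slc35d1, a carrier of UDP-glucuronic acid into the endoplasmic reticulum, fell from 96.2 ± 4.93 to 75.2 ± 3.37 CPM (-0.36 ± 0.09, edgeR adjusted p = 0.0402). That call was lost without any one of Lira161, Lira162, PBS155, PBS157 or PBS158 and with library totals, with an adjusted p of up to 0.152. Pgm3, an enzyme of UDP-N-acetylglucosamine synthesis, rose from 27.8 ± 4.34 to 70.7 ± 18.8 CPM (1.35 ± 0.21, edgeR adjusted p = 0.0106). Pgm3 overlaps Dop1a on the opposite strand over 1270 exon bases, and the strand setting of the counts is not given, so the genes cannot be told apart there. Ugdh was likewise chosen for naming with its values known.

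Sulfotransferases, which compete with the Ugt enzymes for many substrates, and the genes that supply their sulfate donor gave 11 tested members. Of these 4 fell and 0 rose (median -0.51), where 4.69% of all tested genes fell. This list too was written with earlier results known. Besides Sult1b1, Papss2, which makes the sulfate donor, fell from 246.1 ± 6.41 to 146.0 ± 22.0 CPM (-0.75 ± 0.12, edgeR adjusted p = 0.00874). Sult1d1, a neighbour of Sult1b1 past the end of the Ugt2 run, fell by 0.51 ± 0.12 on the log2 scale (edgeR adjusted p = 0.0271). Sult2a7 fell by 2.13 ± 0.40 on the log2 scale from 1.66 ± 0.443 CPM (edgeR adjusted p = 0.0145), and was no longer past the threshold when Lira162 or PBS158 was left out (highest adjusted p = 0.0636).

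Carriers that export conjugates or take up their substrates gave 17 tested members, of which 1 fell and 0 rose (median -0.10). Slc22a7, an organic anion transporter, fell from 57.6 ± 4.75 to 9.88 ± 6.65 CPM (-2.54 ± 0.49, edgeR adjusted p = 0.0376). The call was lost without any one of Lira161, PBS155, PBS157 or PBS158 and with no filter on low counts (adjusted p up to 0.119). Abcc2, the canalicular exporter of glucuronides, had values of 539.7 ± 35.2 and 572.0 ± 54.6 CPM (-0.08 ± 0.12, edgeR adjusted p = 0.691), and was also chosen with its values known.

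Of 26 tested regulators linked to Ugt genes, 1 rose and 0 fell (median -0.14). Hnf4a, a nuclear receptor that maintains hepatocyte gene expression, rose from 751.0 ± 85.6 to 1080.7 ± 78.7 CPM (0.53 ± 0.13, edgeR adjusted p = 0.0338). Its call was lost without any one of Lira161, Lira162, PBS155 or PBS157 (adjusted p up to 0.122).

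Cell type markers moved beside these results in some lists. Their summed levels are by library totals without TMM factors, unlike the CPM of single genes. Over all tested genes 4.69% fell and 4.08% rose, and the marker lists were written with earlier results known. Of 8 hepatocyte markers, 1 (Serpina1c) fell and 0 rose, and their summed level ran from 93454 to 112369 CPM after liraglutide and from 108340 to 133059 in PBS. Among hepatocyte genes of position in the lobule, 4 of 10 pericentral genes and 4 of 9 periportal genes fell and 0 rose in either list (medians -0.28 and -0.57). The summed levels were 12177 to 14500 against 13548 to 14951 CPM for the pericentral list. For the periportal list they were 7970 to 9573 against 6183 to 8483 CPM, and the groups overlapped in both lists. Pck1 was the largest part of the periportal sum, at 5647.8 ± 381.9 against 4142.4 ± 1148.5 CPM. It was not past the threshold (edgeR adjusted p = 0.204). Of 8 sinusoidal endothelial markers 2 rose, Clec4g and Stab1, and their sum ran from 215.9 to 349.3 CPM after liraglutide against 129.5 to 233.7 in PBS. Of 6 cholangiocyte markers 1 fell, Spp1, with sums of 27.0 to 30.2 against 41.9 to 51.9 CPM.

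No Kupffer cell marker of 8, stellate cell marker of 8 or lymphocyte marker of 6 passed the threshold in edgeR, the DESeq2 Wald test or limma-voom, with 0, 0 and 2 at an unadjusted edgeR p under 0.05. Their summed levels were 241.9 to 378.7 against 102.4 to 401.8 CPM, 302.6 to 370.8 against 180.9 to 311.1 CPM, and 4.72 to 5.16 against 2.24 to 4.37 CPM. Of the red cell markers Alas2, the only one tested, fell by 1.48 ± 0.28 on the log2 scale (edgeR adjusted p = 0.0264), and Hba-a1 and Hba-a2 had 0 counts in all libraries. Those 0 counts do not show absence, since the handling of reads that fit several genes is not stated. The adipocyte list summed to at most 2.07 CPM, with Retn at 0 and Adipoq at 0 to 3 counts. Cfd, the only tested gene of that list, was lower but not past the threshold (-2.47 ± 0.67, edgeR adjusted p = 0.0544). It had 2, 3 and 10 counts after liraglutide and 55, 12 and 21 in PBS. Of the pancreas and gut list, 1 of 2 tested genes rose, Fabp2, which the liver also expresses. The other, Cela1, was lower but not past the threshold (-0.95 ± 0.28, edgeR adjusted p = 0.0811). The sums, mostly Fabp2, were 224.4 to 280.7 against 139.6 to 178.8 CPM, and Amy2b was at 0. The part of these shifts in the values of the Ugt2 and Ugt3 genes was not tested.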

How the data were processed

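Liver RNA was sequenced in 3 liraglutide and 3 PBS libraries. The authors deposited a single table of unnormalized read counts by gene symbol. Per the submitters' processing notes, STAR and the build mm10 were used; the counting tool, annotation, strand setting, read length and handling of multi-mapped reads are not stated in any source used here. Column names give a group and a number unlike the labels' triplicate numbers, so each column was tied to its group alone. Within groups, pairs of libraries differed beyond sampling noise (chi-square per degree of freedom 32.8 to 64.9).

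The members and gene lists were chosen with earlier results of these data known. Genes were kept by filterByExpr, leaving 12626 of the 16949 with a count, and fitted by edgeR 4.0.16 in R 4.3.3 (TMM, robust quasi-likelihood, group as the only term, common biological coefficient of variation 0.157). P-values are two-sided and Benjamini-Hochberg adjusted over all tested genes, with a threshold of 0.05. The SE of a log2 fold change was back-calculated, as its absolute value divided by the square root of the quasi-likelihood F statistic. The procedure was tested on simulated data with 200 genes set to differ, fewer than the 1107 called in the real data. There 21 of 165 calls over 12495 tested genes were false, a larger share than the threshold of 0.05. In that setting the procedure recovered 40.3% of 67 genes set to differ 1.5-fold, 86.2% of 65 at 2-fold and 95.3% of 64 at 4-fold. A gene not past the threshold is therefore not shown to be unchanged. Log2 CPM used a prior count of 2. RPKM are TMM-normalised CPM per kilobase of the union of exons (GENCODE M21, GRCm38). Likeness used genes with a mean of at least 5 CPM. Coding identity counts matches among aligned bases of a global alignment, and promoters are RefSeq's. Python 3.11.15 and matplotlib 3.10.9 were used.

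Named genes were all members, per list the 3 called genes with the smallest p (or 2 tested genes where none was called; for markers only some are printed), the nearest tested neighbours, and 5 genes per likeness search. In the lists, 6 symbols were not found in the table. Alternatives were DESeq2 1.42.0 size factors or Wald test, upper quartile factors, library totals, no filter, a mean of at least 5 CPM, limma-voom (limma 3.58.1), removal of the 10 most abundant genes, the longest transcript as length, and each library left out in turn. For the levels, leaving out PBS libraries was added after seeing the data. The planned protein identity was replaced by coding identity. Some listed genes are not reported here.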

Additional observations from a re-analysis of the deposited data

How the results depend on the processing

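The members were chosen from this contrast, so their values under the alternatives are a description and support nothing. Over 14 alternatives the log2 fold change ran from -0.90 to -0.72 for Ugt2a3 and from -1.36 to -1.01 for Ugt2b1. The count of members past it in the lower direction was 2 except with the DESeq2 Wald test, where it was 5 (Ugt2a3, Ugt2b1, Ugt2b34, Ugt2b36 and Ugt3a2, against 6.41% of genes). With one library left out it ran from 2 to 5, with 5 without Lira164 (Ugt2a3, Ugt2b1, Ugt2b34, Ugt3a1 and Ugt3a2, against 6.27%). No member was past it in the higher direction in any alternative. All members fitted were negative under every scaling, and 9 of 10 without Lira162, Lira164 or PBS157. The sign turned for Ugt2b5 without Lira162 (0.023) and for Ugt2b37 without Lira164 (0.106) or PBS157 (0.291). With one library left out Ugt2b5 ran from -0.312 to 0.023, Ugt2b37 from -1.371 to 0.291 and Ugt2b38 from -2.56 (without Lira161) to -0.753 (without PBS157), and the cause was not tested. Over all genes, leaving out one library gave 393 to 1496 changed genes, of them 231 to 802 lower. With library totals 57.2% of calls were higher, against 46.5% with TMM. Over the 5 conjugation lists, 2 genes rose and 7 fell; 4 rose with library totals and 5 with the DESeq2 Wald test, and leaving out one library gave 1 to 7 higher and 3 to 13 lower. With the longest transcript as length, Ugt3a1 stood at 36.17 and Ugt3a2 at 201.1 RPKM in PBS, since fewer exon bases divide the same counts. No paired analysis was possible because the columns carry no triplicate number of the labels. Depth limits Ugt2b37 most, with 24 to 148 counts, and with a mean of at least 5 CPM it was not tested.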

Other observations

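Of 18 other tested genes known as male-predominant in mouse liver, 2 fell, Selenbp2 and Cyp2u1, and 0 rose, where 4.69% and 4.08% of all tested genes did. The other 16 did not pass the threshold, and the median log2 fold change was -0.62, with 18 of 18 negative, against 0.01 and 48.4% negative over all tested genes. Selenbp2 fell from 351.2 ± 18.3 to 32.1 ± 18.8 CPM (-3.45 ± 0.51, edgeR adjusted p = 0.0190) and lost that call without Lira161 or any 1 PBS library (highest adjusted p = 0.0716). Cyp2u1 fell from 28.6 ± 12.4 to 9.91 ± 2.69 CPM (-1.53 ± 0.34, edgeR adjusted p = 0.0437), a call lost in 5 of 14 alternatives, including leaving out PBS158, Lira161 or Lira162 (highest adjusted p = 0.163). The summed level of the male-predominant list, by library totals without TMM factors, was 17040 to 29612 CPM after liraglutide and 29823 to 38632 CPM in PBS. On that scale the groups did not overlap, by a small margin. With the TMM factors of Lira161 (0.993) and PBS155 (1.011), the libraries at that margin, the groups overlap. The list holds near-identical Mup genes, whose counts are uncertain, and Slco1a1, which is also counted among the carriers above.

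Of 8 tested genes known as female-predominant, 1 rose and 0 fell (median 0.61). A1bg rose from 0.107 ± 0.0709 to 1.58 ± 1.04 CPM (3.74 ± 0.67, edgeR adjusted p = 0.0121), a call lost without PBS158 (adjusted p 0.0567). The summed levels overlapped, at 74.8 to 234.5 CPM after liraglutide and 58.4 to 175.0 in PBS, and Cyp3a41a, Cyp3a41b, Cyp3a44 and Cyp3a16 had 0 counts in every library. A count of 0 need not mean absence where reads fit several genes. The lists were written with earlier results known, and the labels used here give no sex.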
